A study of Mus musculus with 12 samples.

Results

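The 146 genes described here lie within 2 Mb of *Ctnnb1*, the gene that encodes β-catenin, on mouse chromosome 9. They were chosen by position: each is listed in both deposited expression tables, ends at or beyond base 118929216 of chromosome 9 and starts at or before base 122960507 in the GRCm38 build. The window held 152 of the 54532 genes of the tables, and 6 of these were left out by name: *Ctnnb1* itself, the ribosomal protein genes *Rpsa* and *Rpl14*, the chemokine receptor genes *Ccr8* and *Cx3cr1*, and the gut hormone gene *Cck*. Distances run from the body of a gene to the body of *Ctnnb1*, which spans 120929216 to 120960507 on the plus strand, so that upstream means lower coordinates, the side on which the deleted enhancer lies.

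RNA-seq was done on 12 libraries in 4 groups of 3, from mice on the C57BL/6 background. Crypts of the small intestine, the pits of the lining with its stem and Paneth cells, came from adult wild-type mice and from adult *Ctnnb1* Δi.enh mice, in which ieCtnnb1, an intestinal enhancer upstream of *Ctnnb1*, had been removed from the germline with CRISPR/Cas9. Colon tumors came from 5-month-old *Apc* Min/+ mice, which carry a nonsense mutation in *Apc*, a negative regulator of β-catenin, and from *Ctnnb1* Δi.enh;*Apc* Min/+ mice of the same age, so that the tumor controls carry the *Apc* mutation too. The deletion is constitutive and therefore present in every cell type of these tissues, not in the epithelium alone. Each tissue has its own table, normalized separately, and genotypes were compared only within a tissue. The study counts mice in the legends of these comparisons and calls its replicates biological, while the library labels number replicates without naming mice, so the p-values are read as measuring the spread between animals.

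An enhancer is a stretch of DNA that raises the transcription of a gene on the same chromosome, often from a distance. Genes that share a folded domain of chromatin with an enhancer can come under its influence as well, which is why the neighbors of a target gene are commonly measured after an enhancer is deleted. β-catenin joins cadherins to the cytoskeleton at cell junctions and carries Wnt signals into the nucleus, where it works with TCF/LEF factors to maintain the stem cells of the crypt.

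The deletion was made with a pair of guide RNAs, whose target-matching parts of 20 and 19 bases are given here as DNA because they mark where the locus was edited. Neither guide matched any of 141767 GENCODE M21 transcripts or any of 32851 RefSeq promoter windows on either strand, and their positions in the genome were not analysed here.
sgRNA3: ccccttacttgatccccaaa
sgRNA13: aagccttcctatgatgagg

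The nearest gene with enough RNA in tumors to be tested was *Gm39460* (ENSMUSG00000111528), a long intergenic noncoding RNA on the minus strand 47.2 kb upstream of *Ctnnb1*, with 3 exons and a single annotated transcript of 1266 bases. The first 120 bases of this transcript, all within its first exon (chr9:120881853-120881972, minus strand, GRCm38), are shown because the values of the gene differed most from those of the controls among the tested neighbors in tumors.
Gm39460: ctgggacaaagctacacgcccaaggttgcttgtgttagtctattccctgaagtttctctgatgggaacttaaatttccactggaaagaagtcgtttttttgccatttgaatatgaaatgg
RefSeq (GRCm38.p6) gave promoter windows, from 250 bases before a start site to 50 bases from the start site on, for 72 of the 144 symbols of these genes. The windows of *Gm19385* (chr9:120866496-120866795, minus strand), *Entpd3* (chr9:120539568-120539867, plus strand) and *Higd1a* (chr9:121857747-121858046, minus strand) are shown because the knockout and control tumors did not overlap in the RNA of these genes. Capitals mark the bases from the start site on.
Gm19385: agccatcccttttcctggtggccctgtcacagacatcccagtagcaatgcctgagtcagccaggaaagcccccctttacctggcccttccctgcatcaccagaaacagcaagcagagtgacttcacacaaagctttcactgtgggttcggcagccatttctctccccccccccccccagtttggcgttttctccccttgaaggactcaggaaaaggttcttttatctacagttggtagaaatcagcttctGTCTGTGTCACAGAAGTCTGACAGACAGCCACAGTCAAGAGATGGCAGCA
Entpd3: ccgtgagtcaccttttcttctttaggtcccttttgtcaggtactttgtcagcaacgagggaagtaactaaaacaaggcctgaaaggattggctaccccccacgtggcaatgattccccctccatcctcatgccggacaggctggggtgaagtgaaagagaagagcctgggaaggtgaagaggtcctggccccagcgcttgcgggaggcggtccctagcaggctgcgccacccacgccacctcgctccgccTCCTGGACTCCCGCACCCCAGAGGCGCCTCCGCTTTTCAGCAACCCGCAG
Higd1a: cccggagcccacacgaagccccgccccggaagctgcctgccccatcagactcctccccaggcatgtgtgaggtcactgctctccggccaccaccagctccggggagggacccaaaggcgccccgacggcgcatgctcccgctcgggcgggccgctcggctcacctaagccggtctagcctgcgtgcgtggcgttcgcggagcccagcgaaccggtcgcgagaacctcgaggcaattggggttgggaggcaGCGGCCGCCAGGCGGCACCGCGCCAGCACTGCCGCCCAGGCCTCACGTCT

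The level of a gene was measured as FPKM, the fragments of its RNA per kilobase of gene, scaled to a size of the library, as deposited by the authors. Multiplied by gene length, FPKM in each library were whole multiples of a single step, so that the fragments behind each value could be recovered, and the 12 libraries held between 14457896 and 16156712 fragments on genes. *Ctnnb1*, the gene whose enhancer was deleted, came first as a check of the labels. Wild-type crypts had a *Ctnnb1* FPKM of 121, 134 and 123, and crypts with the deletion 102, 104 and 105. In tumors it was 299, 363 and 358 in *Apc* Min/+ and 279, 248 and 250.2 in *Ctnnb1* Δi.enh;*Apc* Min/+. Every knockout library was below every control library of its tissue. With limma on log2(FPKM + 0.5), on which the differences of weakly expressed genes come out too small, the tumor difference was -0.39 (standard error 0.128, 95% confidence interval -0.69 to -0.081, unadjusted p = 0.0204), and the adjusted p of 0.303, corrected for all 16743 genes tested in tumors, did not pass the threshold of 0.05. In crypts the difference was -0.28 (95% confidence interval -0.56 to 0.0015), with an unadjusted p of 0.0510 and an adjusted p of 0.849 from limma over the 14176 genes tested there. The side of 0.05 on which the unadjusted p of *Ctnnb1* fell depended on the setting. In tumors it was under 0.05 in 14 of 17 alternatives, but not without *Apc* Min/+ replicate 2 (-0.34) or 3 (-0.35) or with the replicate block (-0.39), and in crypts in 4 of 17, without the filter (-0.28), with the same total without the 50 highest genes (-0.33), with quantile normalization (-0.40) and without wild-type replicate 3 (-0.29).

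Of the 146 neighbors, 68 lie upstream, 75 downstream and 3 overlap *Ctnnb1*, and the annotation counts 54 protein-coding genes, 35 long intergenic noncoding RNAs, 17 pseudogenes and 11 antisense genes among them. Most were silent or nearly so in the intestine: 36 were at 0 in every one of the 12 libraries, 67 in all crypt libraries and 41 in all tumor libraries. A mean FPKM of at least 0.5 over the 6 libraries of a tissue, the condition for testing a gene, was reached by 37 in crypts (25.3%, against 26.0% of all genes) and by 48 in tumors (32.9%, against 30.7%). All 37 were also among the 48, and the other 98 neighbors reached it in neither tissue. Of the protein-coding neighbors, 31 (57.4%) passed in crypts and 36 (66.7%) in tumors, where 53.0% and 60.4% of all protein-coding genes did.

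The genes close to *Ctnnb1* were mostly low or silent. All 17 neighbors within 250 kb lie upstream (14) or overlap *Ctnnb1* (3), as the first downstream neighbor begins 282 kb away, and of these 17 only *Gm18101* passed the filter in crypts and only *Gm18101* and *Gm39460* in tumors. The highest levels were found far from *Ctnnb1*. In crypts the leading neighbors were *Acaa1a* (mean FPKM 60.5), which encodes a peroxisomal thiolase of fatty acid oxidation, *Vipr1* (34.3), a receptor for vasoactive intestinal peptide, *Eif1b* (20.6), a translation initiation factor, *Plcd1* (13.4), a phospholipase C, and *Oxsr1* (13.2), a kinase of the cell volume response. In tumors they were *Vill* (26.9), a relative of villin, *Acaa1a* (23.6), the zinc finger gene *Zfp445* (22.3), *Eif1b* (21.5) and *Vipr1* (18.6). By comparison, the mean FPKM of *Ctnnb1* was 115 in crypts and 299.7 in tumors.

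**Figure D1:**
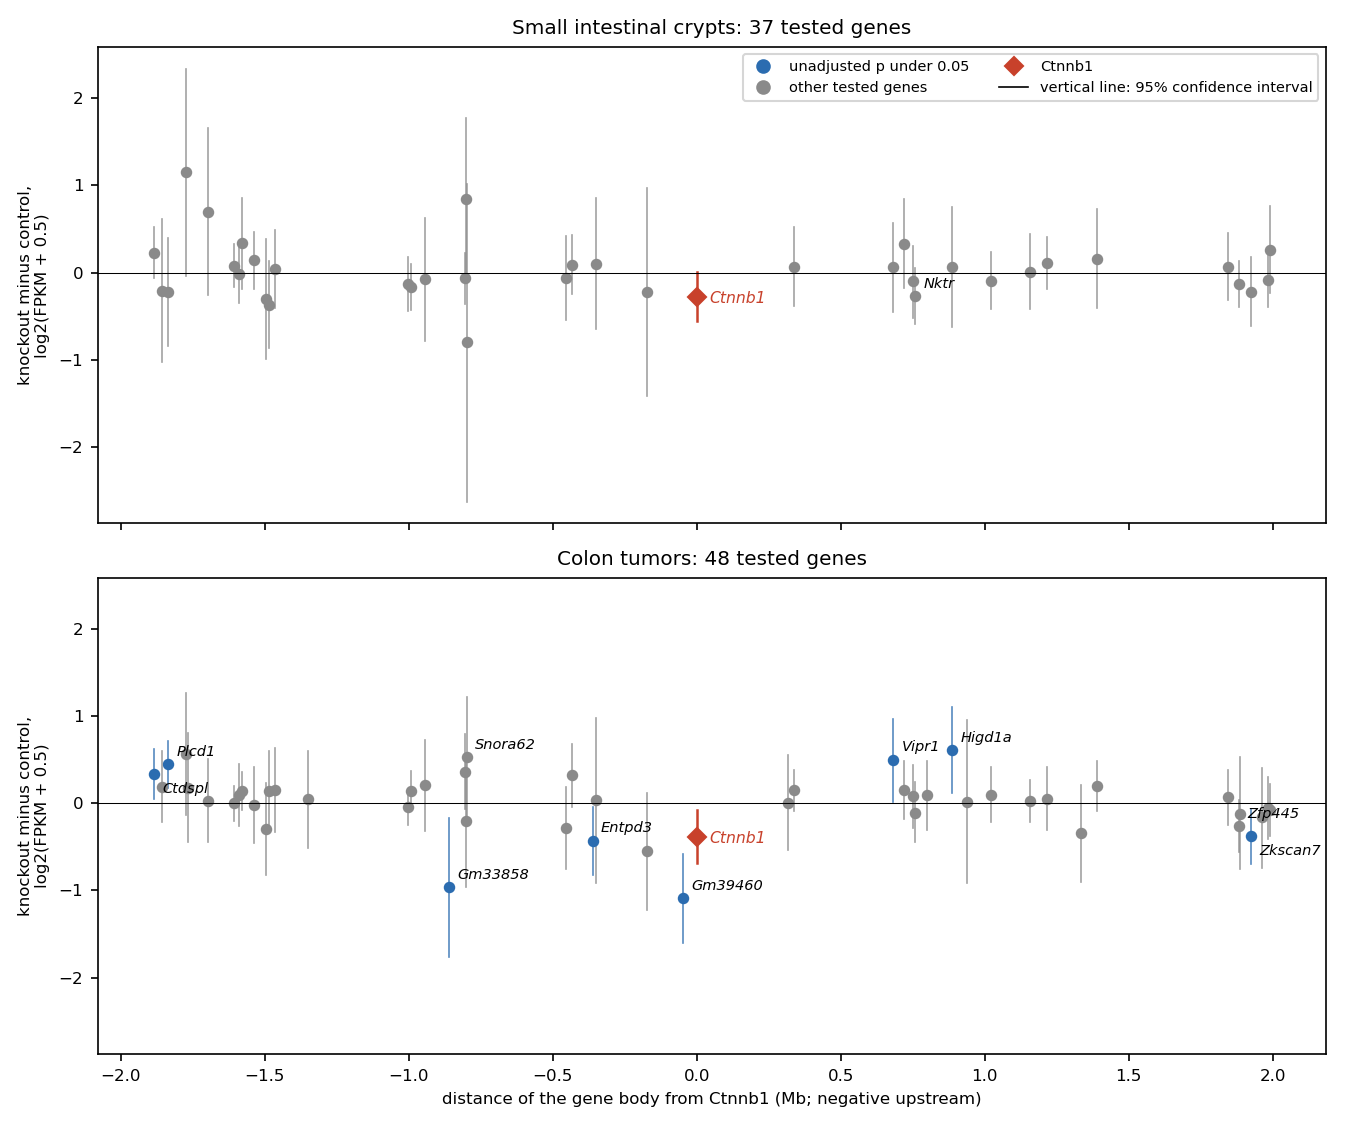
Knockout minus control difference in log2(FPKM + 0.5) of each tested neighbor against the distance of its body from Ctnnb1 in Mb (negative upstream), in crypts (37 genes) and tumors (48 genes), with 95% confidence intervals from limma as vertical lines, Ctnnb1 as a diamond and genes with an unadjusted p under 0.05 in blue; names mark those and genes whose groups do not overlap. In crypts no neighbor is blue, and in tumors the lowest point is Gm39460 at -1.09, next to Ctnnb1 at -0.39.

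In crypts, the comparison asked whether loss of the enhancer was accompanied by changes in other genes of the region, and no tested neighbor passed a threshold of p in limma. None of the 37 tested neighbors had an adjusted p under 0.05 in limma (0% of all 14176 tested genes had one), and none had an unadjusted p under 0.05 (5.85% of all tested genes did). Voom on the recovered fragments gave 1 unadjusted (5.68% of all tested genes) and 0 adjusted. The groups did not overlap for 1 of the 37 (11.9% of all tested genes), which was lower in the knockout (5.15% of all tested genes were lower without overlap). The median log2 difference of the 37 was 0.011, with quartiles of -0.13 and 0.11, beside 0.014 over all tested genes and 0.014 over the other 736 tested genes of chromosome 9. Of the 37, 18 were lower and 19 higher in *Ctnnb1* Δi.enh crypts.

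The gene without overlap was *Nktr*, 759 kb downstream, which encodes a cyclophilin-type protein first described on natural killer cells. Its FPKM was 5.0, 5.10 and 5.55 in wild-type and 4.01, 3.80 and 4.99 in *Ctnnb1* Δi.enh crypts. The highest knockout library lay just under the lowest wild-type library, with the other knockout libraries further below. The log2 difference was -0.27 (standard error 0.136, unadjusted p = 0.0875, adjusted p = 0.860 with limma). Without *Ctnnb1* Δi.enh replicate 3 it was -0.37 with an unadjusted p of 0.0341, and with libraries rescaled to the same total without the 50 highest genes it was -0.32 with 0.0434. In the other 15 of 17 alternatives the unadjusted p was above 0.05, up to 0.252, and with a library left out the difference was as small as -0.20. *Nktr* shares 2182 exonic bases with *E530011L22Rik* on the opposite strand, which was itself lower without overlap in crypts, at 0.0245, 0.0990 and 0.0604 against 0.0116, 0 and 0 on 15 and 1 fragments, far under the filter. The sources used here do not state whether strand was used in counting, so fragments of the pair cannot be told apart.

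The nearest genes on either side of *Ctnnb1* overlapped between the genotypes. *Gm18101*, 174 kb upstream, was the nearest that could be tested in crypts and is annotated as a processed pseudogene. Whether its fragments came from another gene was not analysed here. Its FPKM was 2.48, 1.55 and 0.582 in wild-type and 0.560, 0.762 and 2.60 in *Ctnnb1* Δi.enh crypts. Each group held 1 or more libraries near the bottom of the range and 1 near the top, and the difference of -0.22 (95% confidence interval -1.42 to 0.97) rested on 39 and 32 fragments. It turned positive without wild-type replicate 1 (0.11) or without knockout replicate 1 (0.076). *Eif1b*, 434 kb upstream, was at 20.4, 17.7 and 21.8 in wild-type and 21.1, 24.2 and 18.5 in knockout crypts. *Trak1*, 337 kb downstream, whose product couples mitochondria to kinesin motors, was at 12.3, 11.6 and 12.8 and at 11.7, 10.4 and 17.3. The groups of both genes overlapped, with differences of 0.088 (95% confidence interval -0.25 to 0.43) and 0.069 (-0.38 to 0.52) in log2(FPKM + 0.5), and the lower ends of these intervals are near the difference of *Ctnnb1* itself. The sign of *Eif1b* turned without knockout replicate 2 (-0.0067) and that of *Trak1* without knockout replicate 3 (-0.14).

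*Ulk4*, a kinase-like gene whose end overlaps that of *Ctnnb1* on the opposite strand, and *Entpd3*, an enzyme that breaks down extracellular nucleotides, were measured by RT-qPCR in the study as genes of the same chromatin domain. Both were too low in crypts to be tested by limma. *Entpd3* was at 0.224, 0.209 and 0.272 in wild-type and 0.229, 0.143 and 0.246 in *Ctnnb1* Δi.enh crypts, and the groups overlapped (exact two-sided permutation test, p = 0.6, where 3 libraries against 3 cannot give less than 0.1). *Ulk4* was at 0.0304, 0.0769 and 0.0300 in wild-type and 0.0650, 0.0562 and 0.0837 in knockout crypts (exact two-sided permutation test, p = 0.300), on 18 and 27 fragments. Since 759 exonic bases of *Ulk4* are shared with *Ctnnb1*, some of these fragments may belong to *Ctnnb1*.

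**Figure D2:**
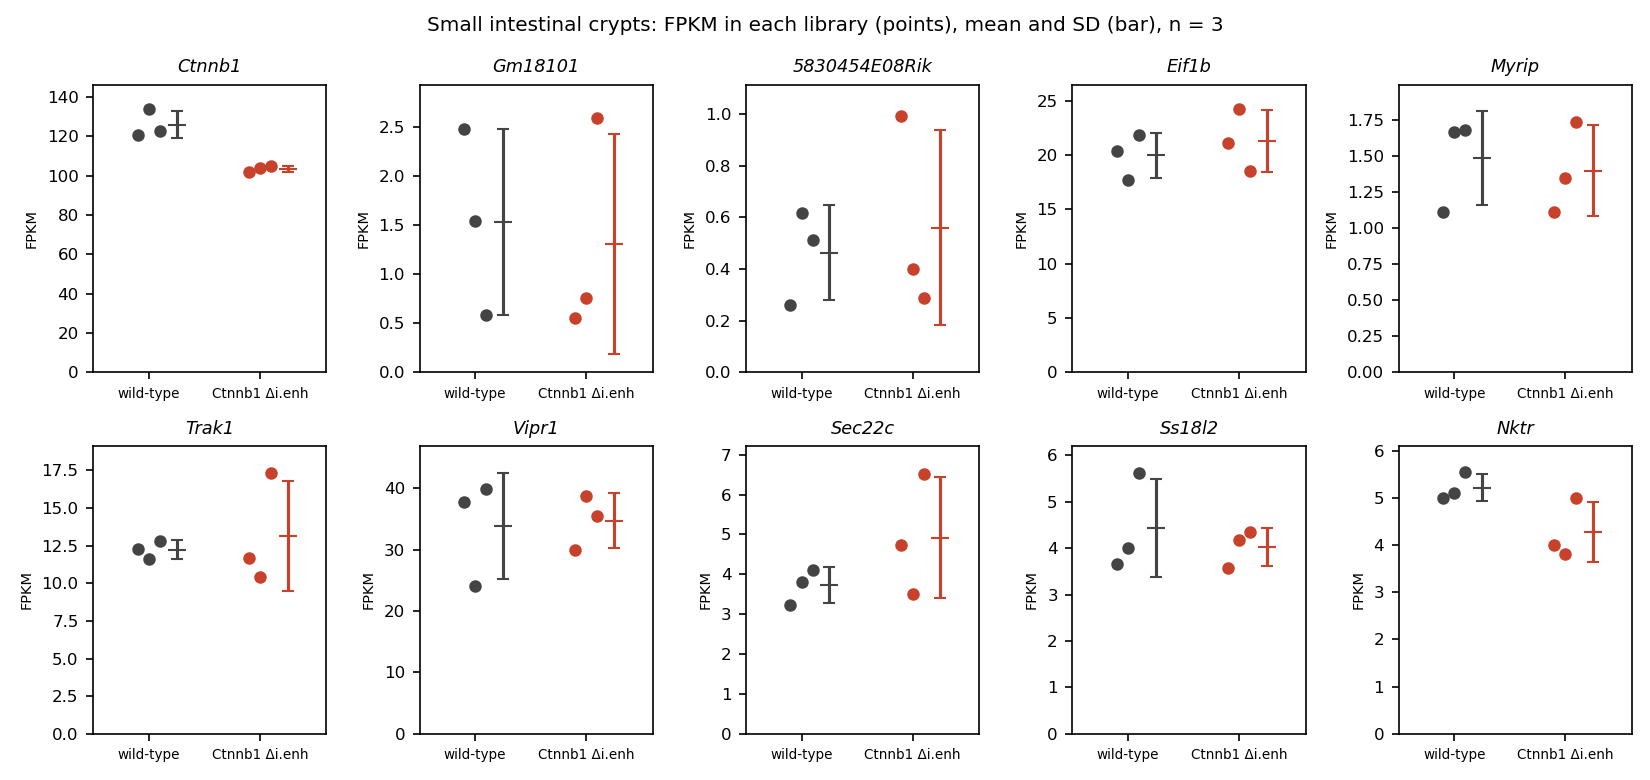
FPKM in each crypt library (points) with the mean and SD of the 3 libraries of a group (bars) for Ctnnb1 and the 9 nearest neighbors tested in crypts, upstream genes first. Only Ctnnb1 and Nktr, of the genes drawn, have all knockout points under all wild-type points.

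By role, the crypt neighbors are described with counts and medians, and whether any group differed from the rest was not tested. Of the 7 tested receptors and signaling proteins, 4 were lower and 3 higher, with a median of -0.013. They include *Vipr1*, at 37.8, 24.0 and 39.8 in wild-type and 29.9, 38.8 and 35.4 in knockout crypts, and *Myd88*, the adaptor of Toll-like receptors, at 13.9, 12.1 and 10.8 and at 10.7, 13.4 and 12.2. The wild-type libraries of *Vipr1* enclosed all its knockout libraries. *Plcd1* was unsettled in wild-type crypts, at 8.85, 17.0 and 18.4 against 12.1, 11.9 and 12.1 in the knockout, and its difference of -0.22 became -0.54 (unadjusted p = 0.00307, adjusted p = 0.425 with limma) without wild-type replicate 1, the low library, but -0.085 without replicate 2 and -0.030 without replicate 3 of the wild type.

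The group of metabolic genes counts *Higd1a* with the enzymes although its product is none. The difference of *Higd1a* was 0.063, from -0.12 to 0.41 with a library left out, while its mean FPKM was 5.91 in wild-type and 5.82 in knockout crypts. Of the 6 tested genes of the group, 5 were higher in the knockout by log2(FPKM + 0.5), with a median difference of 0.15, and none passed a threshold. The leading ones were the thiolase pair: *Acaa1a*, at 40.2, 55.7 and 64.9 in wild-type and 78.7, 53.3 and 70.2 in knockout crypts, and *Acaa1b*, at 0.790, 1.77 and 3.97 and at 7.04, 2.59 and 5.62. For *Acaa1b*, chosen after its values were seen, the wild-type and knockout libraries overlapped, and the difference of 1.15 (standard error 0.502, unadjusted p = 0.0558, adjusted p = 0.849 with limma) was the highest of the 37. Its unadjusted p was under 0.05 by voom (1.38, unadjusted p = 0.0370), with libraries rescaled to the same total (1.18, unadjusted p = 0.0399), among protein-coding genes (1.15, unadjusted p = 0.0418), with the replicate block (1.15, unadjusted p = 0.0460), without wild-type replicate 3 (1.61, unadjusted p = 0.0111) and without knockout replicate 2 (1.53, unadjusted p = 0.0214). *Acaa1a* and *Acaa1b* are close paralogs, so fragments could be shared between them. The differences of the RNA, translation and protein folding genes (5 tested) had a median of -0.10, those of transport within cells and cytoskeleton (6) 0.15, zinc finger proteins (2) -0.18, channels and carriers (2) 0.019, predicted genes (5) -0.082 and other genes (4) 0.0025.

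Several cell type markers differed between the crypt groups and are given beside these values; their part in the results was not tested. In bulk tissue, fewer cells of a type and less RNA per cell cannot be told apart. The summed FPKM of 4 enteroendocrine markers was 129, 103 and 161 in wild-type and 74.4, 102 and 100 in *Ctnnb1* Δi.enh crypts, with *Chgb* the most abundant (mean 69.8) and 2 of the 4 genes without overlap. That of 5 endothelial markers was 0.833, 0.938 and 0.735 against 0.653, 0.645 and 0.702, near the floor of detection, with *Pecam1* leading at 0.637. The sums of the epithelial, stem cell, Paneth, goblet, tuft, fibroblast and smooth muscle, leukocyte, and nerve and glia lists overlapped between the genotypes, though 2 of 6 Paneth cell genes, 1 of 10 fibroblast and smooth muscle genes and 1 of 11 leukocyte genes were lower without overlap. *Krt8* led the 7 epithelial genes at 1669, *Defa24* the Paneth cell genes at 12578 and *Olfm4* the 4 stem cell genes at 789.8, so the tissue carried the markers of its label, while *S100a8* and *Sox10* were at 0 in all crypt libraries.

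In tumors, several neighbors had knockout libraries wholly below or above the control libraries, at about the rate found across the genome. The nearest of them was *Gm39460*, lower in every *Ctnnb1* Δi.enh;*Apc* Min/+ library, followed upstream by *Entpd3*, also lower. Beyond 500 kb, *Vipr1*, *Higd1a*, *Plcd1* and *Ctdspl* were higher and *Gm33858* and *Zkscan7* lower. None of the 48 tested neighbors had an adjusted p under 0.05 in limma (0% of all 16743 tested genes did), and 8 had an unadjusted p under 0.05 (16.7%, against 14.5% of all tested genes). Voom gave 9 unadjusted (15.2% of all tested genes) and 0 adjusted. The 8 divided into 4 lower (6.0% of all tested genes were lower at this p) and 4 higher (8.46%). The groups did not overlap for 10 of the 48 (20.8%, against 22.1% of all tested genes), 5 lower (10.6%) and 5 higher (11.4%). These shares were near those of all tested genes and are no result about the neighbors as a list. Leaving out *Ctnnb1* Δi.enh;*Apc* Min/+ replicate 3 reduced the 8 to 5, while the share of all tested genes went from 14.5% to 10.5%. Leaving out *Apc* Min/+ replicate 2 moved the 10 to 17, while the count over all 16743 tested genes went from 3693 to 4776.

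*Gm39460* had an FPKM of 1.90, 2.01 and 3.01 in *Apc* Min/+ tumors and 0.884, 0.591 and 0.962 in *Ctnnb1* Δi.enh;*Apc* Min/+ tumors. A wide gap separated them, with the highest knockout library at under 1 and the lowest control library near 2. The means were 2.31 ± 0.611 and 0.812 ± 0.196 (SD, n = 3 each), a ratio of 0.352, and rested on 138 and 49 fragments in all. On the log2(FPKM + 0.5) scale the difference was -1.09 (standard error 0.214, 95% confidence interval -1.60 to -0.58, unadjusted p = 0.00163, adjusted p = 0.269 with limma), the lowest of the 48 neighbors and in place 136 from the bottom among the 16743 tested genes. Under all 16 alternative settings that could be run for it, the difference ran from -1.47 to -0.86 with an unadjusted p between 0.00125 and 0.00575, and its adjusted p with limma between 0.172 and 0.595. In crypts the gene was barely seen, at 0, 0 and 0.151 in wild-type and 0 in all 3 knockout libraries, so that no difference could be detected there at this depth. By the distance and length that the study gives for the enhancer, it lies between *Gm39460* and *Ctnnb1* and clear of both, while the ends of the deletion were not located here.

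Transcripts between *Gm39460* and the 250 kb mark rested on few fragments, and not all were lower in the knockout. *Gm39459*, 84.3 kb upstream, was at 0.0326, 0.0320 and 0 in *Apc* Min/+ and 0.0328, 0.0329 and 0.203 in *Ctnnb1* Δi.enh;*Apc* Min/+ tumors, on 2 and 8 fragments. Its higher value in the knockout thus came from knockout replicate 3 alone. *Gm19385*, a predicted gene 62.5 kb upstream that was named after its values were seen, was below the filter and at 0.750, 0.501 and 0.516 in *Apc* Min/+ and 0.171, 0.275 and 0.318 in *Ctnnb1* Δi.enh;*Apc* Min/+ tumors. All knockout libraries were below all control libraries (log2 difference -0.53, exact two-sided permutation test, p = 0.1), on 51 and 22 fragments. *Gm18101*, at 1.24, 0.664 and 1.10 and at 0.680, 0.228 and 0.702, overlapped between the genotypes, with a difference of -0.55 (standard error 0.282, unadjusted p = 0.0941, adjusted p = 0.408 with limma) on 26 and 14 fragments. The unadjusted p of *Gm18101* was under 0.05 in 1 of 15 alternatives, the replicate block (-0.55, unadjusted p = 0.0487, adjusted p = 0.442 with limma). Taken over all 14 upstream neighbors within 250 kb, summed FPKM was 4.42, 3.37 and 5.39 in *Apc* Min/+ and 2.19, 1.29 and 2.38 in knockout tumors. Without *Gm39460* the sums were 2.52, 1.36 and 2.38 against 1.30, 0.701 and 1.42, and the groups overlapped by a small margin. The 12 neighbors of this stretch that were under the filter in tumors summed to 1.28, 0.700 and 1.28 against 0.622, 0.473 and 0.717, again with a slight overlap, and were at 0 in every crypt library. Of the 0.717 in knockout replicate 3, 0.203 came from *Gm39459*. These are sums of few fragments, 32, 20 and 26 in the control and 13, 13 and 21 in the knockout libraries for these 12, and 82, 68 and 92 and 37, 27 and 46 for all 14. How much of the signal came from transcripts outside the annotation was not analysed here.

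**Figure D3:**
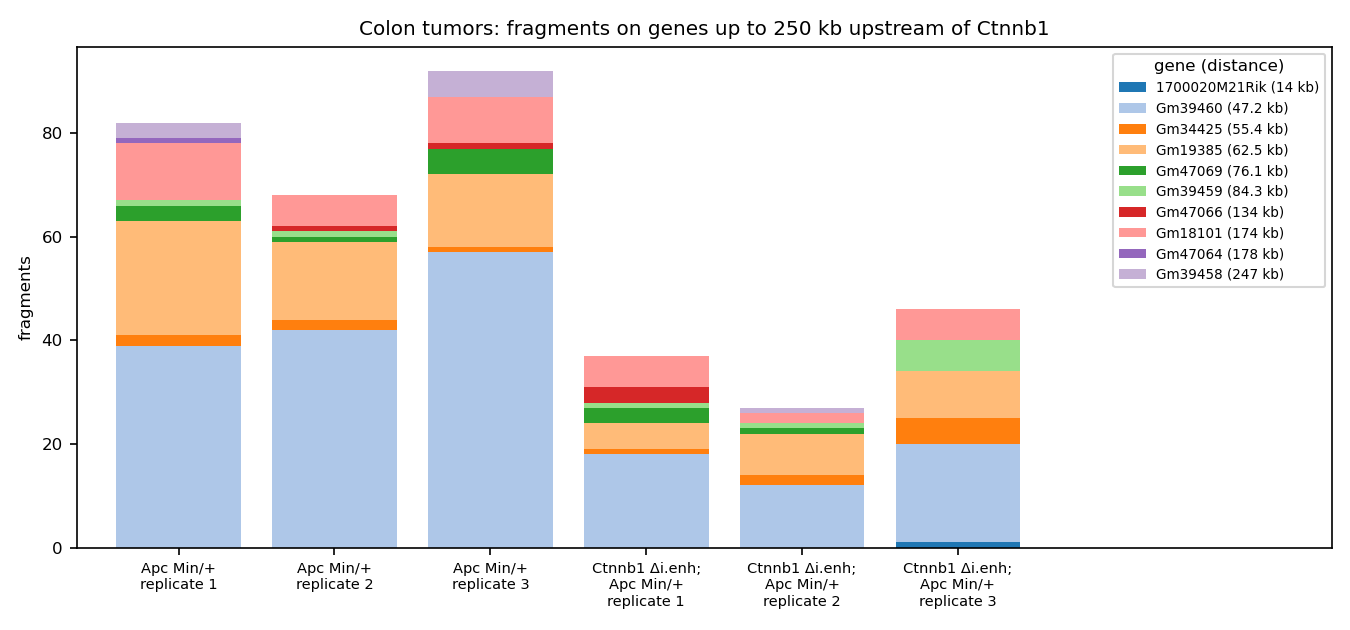
Fragments on each gene up to 250 kb upstream of Ctnnb1 in each colon tumor library, stacked by gene, with the distance from Ctnnb1 in the legend; genes with no fragment in any tumor library are not drawn. The bars reach 82, 68 and 92 in Apc Min/+ and 37, 27 and 46 in Ctnnb1 Δi.enh;Apc Min/+, and Gm39460 makes up the largest part of each bar.

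*Entpd3*, 361 kb upstream, was low in crypts but at 7.20, 7.0 and 9.83 in *Apc* Min/+ tumors and 6.01, 4.93 and 6.37 in *Ctnnb1* Δi.enh;*Apc* Min/+ tumors. All 3 knockout libraries lay below the control libraries, of which replicate 3 stood above the others. The log2 difference was -0.43 (standard error 0.161, 95% confidence interval -0.82 to -0.048, unadjusted p = 0.0327, adjusted p = 0.324 with limma). Its unadjusted p was above 0.05 without *Apc* Min/+ replicate 3 (-0.29, unadjusted p = 0.0892), without knockout replicate 1 (-0.46, unadjusted p = 0.0585) and without knockout replicate 2 (-0.33, unadjusted p = 0.0978). *Ulk4* was at 0.407, 0.492 and 0.425 in control and 0.256, 0.220 and 0.430 in knockout tumors, under the filter and with overlapping groups (log2 difference -0.24, exact two-sided permutation test, p = 0.300). Of the other nearest genes, *Eif1b* was at 17.4, 22.0 and 17.6 against 21.4, 21.7 and 28.6 (0.32, unadjusted p = 0.0730), while *Trak1* (0.15), *Myrip* (-0.28), *5830454E08Rik* (0.036) and *Gm34655* (0.0042) had differences with groups that overlapped.

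Among the 8 tested receptors and signaling proteins, 6 were higher and 2 lower in knockout tumors, with a median difference of 0.064. *Plcd1*, 1836 kb upstream, which encodes a phospholipase C that releases second messengers from membrane lipids, had an FPKM of 5.81, 4.92 and 4.73 in *Apc* Min/+ and 7.35, 7.64 and 6.57 in *Ctnnb1* Δi.enh;*Apc* Min/+ tumors. Control and knockout libraries were apart, and the difference was 0.45 (standard error 0.115, 95% confidence interval 0.17 to 0.72, unadjusted p = 0.00678, adjusted p = 0.269 with limma). All 17 alternatives kept an unadjusted p under 0.05 for it, with differences from 0.39 to 0.53 and adjusted p from 0.179 to 0.595. *Vipr1*, 682 kb downstream, was at 16.8, 17.8 and 11.7 in control and 18.2, 26.6 and 20.9 in knockout tumors. The lowest knockout library was just above the highest control library, and the difference of 0.50 (standard error 0.200, unadjusted p = 0.0433, adjusted p = 0.338 with limma) had an unadjusted p under 0.05 in 9 of 17 alternatives, but not without *Apc* Min/+ replicate 1 (0.57) or 3 (0.31), without knockout replicate 2 (0.35) or 3 (0.52), with the same total with or without the 50 highest genes (0.45 in both), with quantile normalization (0.44) or without a variance trend (0.50). The activin receptor gene *Acvr2b* (-0.29), *Snrk* (0.031), *Oxsr1* (-0.0018) and *Myd88* (0.098) had groups that overlapped.

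The group of metabolic genes had a median difference of 0.14 over 7 tested genes, 5 higher and 2 lower. *Higd1a*, 888 kb downstream, was counted in it but encodes no enzyme, only a small protein of the inner mitochondrial membrane induced by low oxygen. It was at 12.5, 13.0 and 7.81 in *Apc* Min/+ and 15.9, 15.4 and 19.6 in knockout tumors, so that the groups were apart, with *Apc* Min/+ replicate 3 well below the other control libraries. The difference was 0.61 (standard error 0.205, unadjusted p = 0.0216, adjusted p = 0.305 with limma), the highest of the 48, but 0.39 without *Apc* Min/+ replicate 3. Its unadjusted p was above 0.05 only without knockout replicate 3 (0.51, unadjusted p = 0.0723) among 17 alternatives. Its 683 bases shared with *Gm47112* on the opposite strand leave the origin of some fragments unsettled, though *Gm47112* was at most 0.244 in any tumor library. *Acaa1a* was at 23.6, 21.6 and 21.9 and at 22.8, 24.3 and 27.1, a difference of 0.14 with groups that overlapped.

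*Ctdspl*, 1885 kb upstream, was counted with the transport and cytoskeleton genes (6 tested, median 0.15) although it encodes a small phosphatase of the RNA polymerase II tail, so its values say nothing of that group. Its FPKM was 4.57, 4.44 and 5.13 in control and 6.07, 6.77 and 5.39 in knockout tumors, without overlap. The difference of 0.33 (standard error 0.119, unadjusted p = 0.0278, adjusted p = 0.318 with limma) had an unadjusted p under 0.05 in 10 of 17 alternatives and not without *Apc* Min/+ replicate 1 (0.31) or 2 (0.29), without knockout replicate 1 (0.33) or 2 (0.26), with the replicate block (0.33), or with libraries rescaled to the same total with or without the 50 highest genes (0.29 in both). *Vill*, the highest neighbor in tumors, was at 27.5, 27.9 and 19.9 and at 34.0, 24.9 and 27.0, with groups that overlapped (0.19, standard error 0.172).

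Among 4 tested zinc finger genes, 3 had a negative and 1 a positive difference. *Zkscan7*, 1925 kb downstream, was at 3.13, 3.81 and 3.23 in *Apc* Min/+ and 2.42, 2.76 and 2.25 in *Ctnnb1* Δi.enh;*Apc* Min/+ tumors. All knockout libraries were below all control libraries, with a difference of -0.38 (standard error 0.132, unadjusted p = 0.0238, adjusted p = 0.308 with limma). The unadjusted p exceeded 0.05 without *Apc* Min/+ replicate 2 (-0.31, unadjusted p = 0.0927) and without knockout replicate 1 (-0.37, unadjusted p = 0.0646) or 3 (-0.33, unadjusted p = 0.0656). *Zfp445*, which encodes a repressor that acts at imprinted genes, was at 23.4, 23.2 and 26.4 and at 21.6, 22.3 and 16.9, also without overlap (-0.26, unadjusted p = 0.0748, adjusted p = 0.384 with limma). That difference was -0.14 without knockout replicate 3, and its unadjusted p was under 0.05 without knockout replicate 2 (-0.33, unadjusted p = 0.0469) and with quantile normalization (-0.34, unadjusted p = 0.0408). The other tested members of this group, *Zfp651* (0.089) and *Zfp105* (-0.16), overlapped, and the 4 had a median of -0.21. *Zkscan7* shares 1043 exonic bases with *A530083I20Rik* on the opposite strand, which was at most 0.0473 in any tumor library.

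Of the 11 tested predicted genes, 7 were lower and 4 higher in tumors, with a median of -0.12. Besides *Gm39460*, *Gm33858*, an antisense gene 859 kb upstream, had groups apart: 1.79, 1.25 and 1.33 in *Apc* Min/+ and 1.01, 0.530 and 0.136 in knockout tumors. The knockout libraries were spread widely, and the difference of -0.96 (standard error 0.333, unadjusted p = 0.0247, adjusted p = 0.311 with limma) rested on 98 and 38 fragments. Without *Apc* Min/+ replicate 1 it was -0.84 (unadjusted p = 0.0757), without *Apc* Min/+ replicate 3 -1.01 (unadjusted p = 0.0501) and without knockout replicate 2 -0.98 (unadjusted p = 0.0520). The difference itself moved most without knockout replicate 3 (-0.64) or 1 (-1.26), with a pseudocount of 0.1 (-1.49) or 1 (-0.69), and by voom (-1.69). *Gm33858* shares 78 exonic bases with *Cx3cr1* on the opposite strand, a receptor gene of macrophages that was at 5.66, 4.25 and 3.28 in control and 4.77, 7.28 and 2.70 in knockout tumors, a difference of 0.083 with groups that overlapped. The short RNA gene *Snora62*, which lies within *Rpsa*, was at 2.07, 0.813 and 2.24 in control and 2.50, 2.51 and 2.58 in knockout tumors, on 12 and 18 fragments. It was thus higher without overlap in the knockout (0.53, unadjusted p = 0.111 with limma). The 5 RNA, translation and protein folding genes had a median difference of 0.080, the 3 channels and carriers 0.054 (0 lower and 3 higher) and the 4 other genes 0.049. Apart from *Snora62*, the groups of these genes overlapped.

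**Figure D4:**
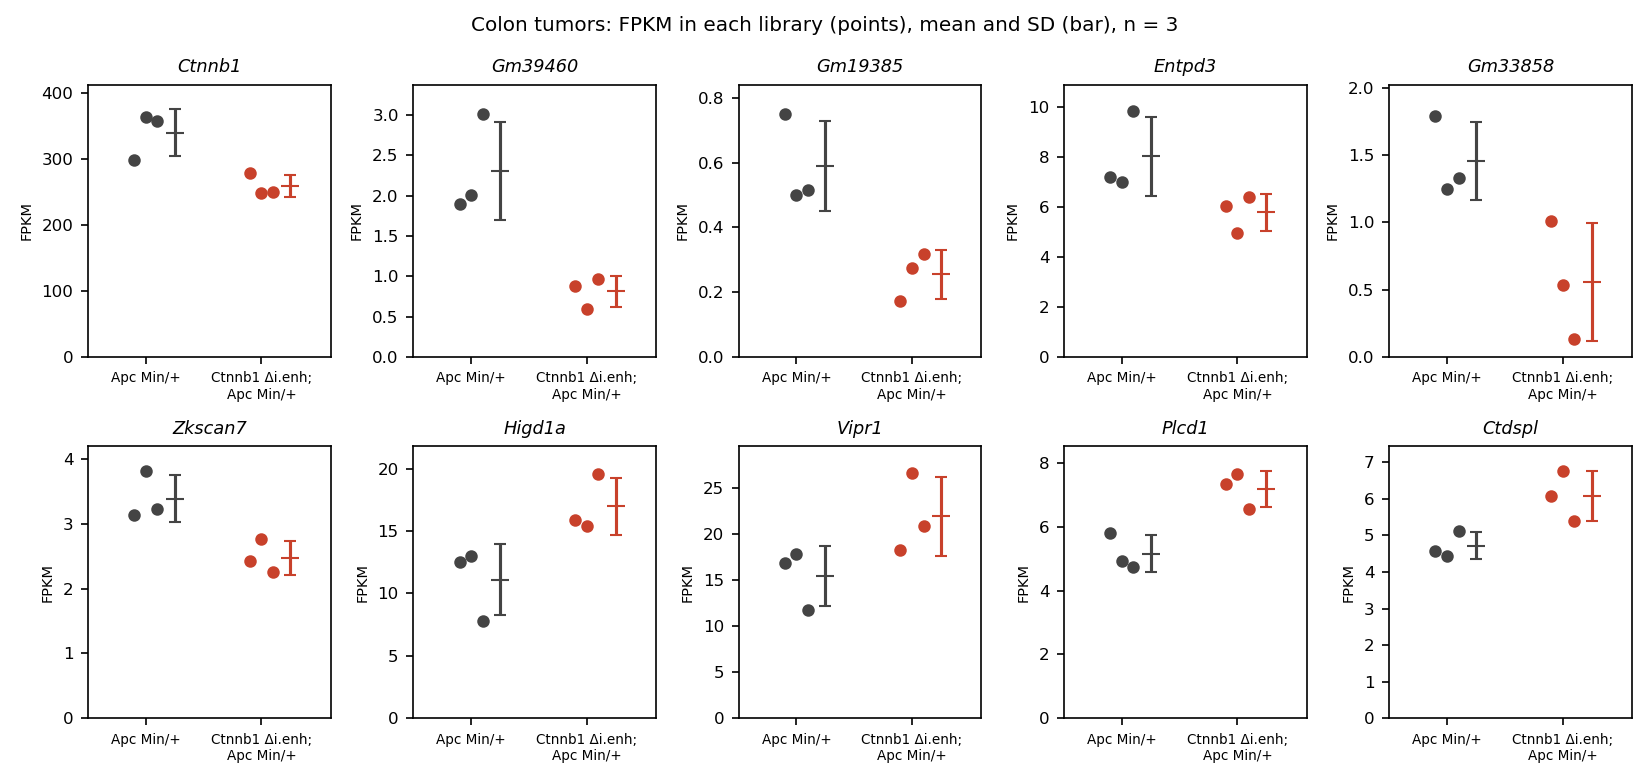
FPKM in each colon tumor library (points) with the mean and SD of the 3 libraries of a group (bars) for Ctnnb1 and 9 neighbors, the lower ones first. In each panel the knockout points lie wholly below or wholly above the Apc Min/+ points, a condition for choosing these neighbors. Gm19385 was added after its values were seen, and the other 8 also had an unadjusted p under 0.05 with limma. Zfp445 and Snora62, also without overlap, are not drawn. Gm39460 ranges from 1.90 to 3.01 in Apc Min/+ and from 0.591 to 0.962 in the knockout.

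Cell type markers differed between the tumor genotypes as well, and their part in the results above was not tested. As in crypts, the number of cells of a type and the RNA per cell cannot be told apart. Summed FPKM of the 7 epithelial markers was 4172, 4206 and 3656 in *Apc* Min/+ and 4931, 4798 and 5085 in *Ctnnb1* Δi.enh;*Apc* Min/+ tumors, with all 7 genes higher without overlap and *Krt8* (mean 1588) leading. The 4 goblet cell markers summed to 644, 539.6 and 529.7 against 988, 1447 and 1189.5, all 4 without overlap, with *Tff3* (458) the most abundant. Fibroblast and smooth muscle markers summed to 461, 329 and 302 against 479, 574 and 489.7 (5 of 10 without overlap, *Col1a1* leading at 121), and endothelial markers to 28.5, 26.8 and 23.4 against 30.1, 30.5 and 30.3 (2 of 5 without overlap, *Cdh5* leading at 13.6). Leukocyte markers summed to 233, 452 and 328 against 232, 147 and 213, a sum carried by *S100a9* (137, the most abundant) and *S100a8*, the 2 of 11 genes that were lower without overlap. The median difference of the 8 tested leukocyte genes was 0.024, and *Cd79a* (0.83), *Adgre1* (0.31), *Csf1r* (0.081), *Cd68* (0.025) and *Itgam* (0.023) were on the higher side and *Ptprc* (-0.11) on the lower. The stem cell, Paneth, enteroendocrine, tuft, and nerve and glia lists overlapped, and *Il25* of the tuft cell list was at 0 in all tumor libraries. Both genotypes held the same mix of sexes, as *Xist*, expressed in females, was at 114 and 61.4 in replicate 3 of the control and of the knockout and at most 0.0623 in the other tumor libraries.

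Distance from *Ctnnb1* was compared in 4 bands, and whether the differences follow distance was not tested. In crypts the median log2 difference was -0.22 for the 1 gene tested within 250 kb, 0.078 for 4 genes between 250 and 500 kb, -0.071 for 10 genes between 500 kb and 1 Mb and 0.026 for 22 genes between 1 and 2 Mb. In tumors the same bands had medians of -0.82 (2 genes), 0.020 (6), 0.14 (13) and 0.046 (27). The nearest band thus held the lowest median in both tissues, but over 1 and 2 genes, with the processed pseudogene *Gm18101* among them in both. On the upstream side alone, the tumor medians were -0.82 (2 genes), -0.12 (4), 0.18 (6) and 0.14 (15), and the crypt medians -0.22 (1), 0.088 (3), -0.075 (5) and 0.041 (13). By side, the 22 upstream genes tested in crypts had a median of -0.039 and the 15 downstream genes 0.060, and in tumors the 27 upstream genes had 0.098 and the 21 downstream genes 0.031.

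Over all 48 genes the median difference in tumors was 0.050 (quartiles -0.11 and 0.16, 18 lower and 30 higher), beside 0.0075 over all tested genes and 0.0018 over the other 862 tested genes of chromosome 9. Single neighbors ran from -1.09 to 0.61. Of the 48, 37.5% were lower in the knockout, against 48.7% of all tested genes and 49.7% of the other tested genes of chromosome 9, and in crypts 48.6%, 47.2% and 45.5% were. Whether these shares differ was not tested. Among the other 862 genes, 135 had an unadjusted p under 0.05 in tumors and 200 had groups that did not overlap, and among the other 736 genes tested in crypts these counts were 44 and 87.

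**Figure D5:**
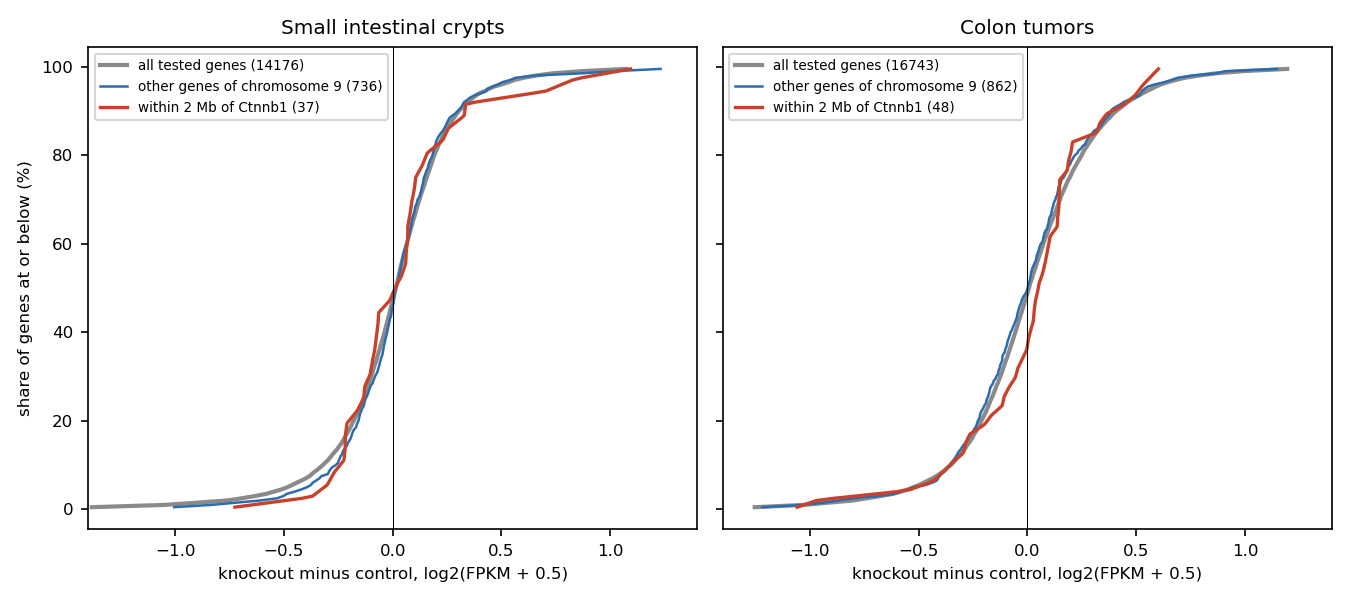
Cumulative share of genes (%) at or below each knockout minus control difference in log2(FPKM + 0.5), for the tested neighbors of Ctnnb1 (red), the other tested genes of chromosome 9 (blue) and all tested genes (grey), in crypts and tumors. The red line crosses 50% at 0.011 in crypts and 0.050 in tumors, beside 0.014 and 0.0075 for all tested genes.

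Set side by side, 8 of the 37 genes tested in both tissues were lower in the knockout in both, 15 were higher in both and 14 had opposite signs, and none had groups without overlap in both. Of all tested genes, 11.9% had groups without overlap in crypts and 22.1% in tumors. Shares over all genes tested in both tissues were not worked out, so these counts are no result about the neighbors as a list. Whether the differences of the tissues differ from each other was not tested, as the tables were normalized separately. *Nktr*, the gene without overlap in crypts, was at 6.99, 7.25 and 6.95 in *Apc* Min/+ and 6.68, 7.86 and 5.28 in knockout tumors, where the groups overlapped. Conversely *Higd1a*, *Plcd1* and *Zkscan7* had differences in crypts of 0.063, -0.22 and -0.22, each with groups that overlapped. The crypt difference of *Higd1a* was 0.41 (unadjusted p = 0.0266, adjusted p = 0.594 with limma) without wild-type replicate 3. Of the 48 genes, 34 had a higher mean FPKM in the tumor table than in the crypt table, 11 of them crossing the filter only there, among them *Entpd3* (0.221 in crypts and 6.89 in tumors), *Zfp651* (0.151 and 3.28) and the decoy chemokine receptor gene *Ackr2* (0.00710 and 1.01). These levels come from different organs and separately scaled tables and were not tested against each other.

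The promoter windows of the tested neighbors were searched for 4 short motifs on both strands, 3 of them of factors connected with this enhancer or with Wnt signaling and the other the TATA box of core promoters. The letters CTTTGA, the core bound by TCF/LEF factors, were found in 7 of 47 windows (16.0% of all 32851 windows hold them), which belong to 6 genes, *5830454E08Rik*, *Acaa1a*, *Acaa1b*, *Gm34655*, *Kif15* and *Zfp445*. The cAMP response element TGACGTCA was found in 2 (1.79% of all), *Oxsr1* and *Trak1*, the letters CAAAGTC, part of the site of HNF4 factors, in 1 (4.44% of all), *Ss18l2*, and the TATA box TATAAA in 1 (13.6% of all), *Myd88*. CAAAGTC shares letters with the reverse complement of CTTTGA. None of the 4 was found in the windows shown above for *Gm19385*, *Entpd3* and *Higd1a*, nor in those of *Vipr1* and *Plcd1*. A match describes letters in a window and not a bound site, and 37 of the 48 tested symbols had a window to search.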

How the data were processed

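Total RNA of crypts and tumors was sequenced as paired-end reads. The authors deposited FPKM per gene and library in a separate table for each tissue. Their methods name Hisat2 and featureCounts, the submitters' processing notes name cutadapt, HISAT2, Cufflinks 2.2.1, DESeq2 and the build mm10, and the use of strand is not given in the sources used here. The tables' positions are those of GRCm38, as 145 of the 146 genes have the same start and end in GENCODE M21. FPKM times gene length came out whole, within 0.1%, for 100.0% of non-zero values after division by 1 step per library, and these fragments were used for depth and voom.

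Version 3.58.1 of limma, run in R 4.3.3, compared the genotypes on log2(FPKM + 0.5) and let the variance follow the level. Genes took part if FPKM averaged 0.5 or more over a tissue, and p was adjusted after Benjamini and Hochberg over all such genes, with a threshold of 0.05. The authors' test, DESeq2, needs counts and was not applied to FPKM. It was not run on the recovered fragments either, for which voom was used. An exact permutation test, two-sided, was added for single genes. The procedure was tested on simulated data.

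The members, gene roles, marker lists and motifs were chosen with earlier results of these data known. Roles and markers were written from general knowledge. Named are the 6 nearest genes per side that passed this filter in either tissue, *Ulk4* and *Entpd3*, the 5 highest genes per tissue, and every gene with an unadjusted p under 0.05 and no overlap in either tissue, 22 genes in all. *Gm19385*, *Acaa1b*, *Snora62*, *Cx3cr1* and other genes given with their values in passing were named after these had been seen. Sequences are from RefSeq (GRCm38.p6), GENCODE M21 and the study's list of oligonucleotides. Alternatives were a pseudocount of 0.1 or 1, no filter or a filter at 1, rescaling of libraries to a common total with or without the 50 highest genes, quantile normalization, no variance trend, voom, a block for the replicate number, protein-coding genes alone, and leaving out each library in turn.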

Additional observations from a re-analysis of the deposited data

How the results depend on the processing

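No neighbor of *Ctnnb1* had an adjusted p under 0.05 under any alternative in either tissue. Of the 18 named genes tested in crypts, *Ctnnb1* included, 9 kept their sign in all fits, and 18 of 302 fits reversed a sign; in tumors 17 of 22 did, with 14 of 365 fits reversed. The cause of the changes below was not tested, except that leaving out a library leaves fewer libraries that can overlap.

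The crypt count at an unadjusted p under 0.05, 0 as reported, was 3 without the filter, where 79 neighbors were tested (5.05% of all tested genes). It was 1 with the same total (5.38%), 1 with the same total without the 50 highest genes (5.56%), 1 among protein-coding genes (5.82%) and 1 by voom (5.68%). With a library left out it was 0 to 3 (3.26 to 9.48% of all tested genes). The crypt count without overlap, 1 as reported, was 4 without the filter (2562 of all 26718 genes), 2 with the same total (1521 of 14166), 2 without the 50 highest genes (1649 of 14174), and 3 to 8 with a library left out (2558 to 3969 of 14176). In tumors, the 8 genes at an unadjusted p under 0.05 became 11 without the filter, where 105 neighbors were tested (9.91% of all tested genes), and 6 with the same total (14.5%). With a library left out they became 5 to 7 (8.36 to 16.5% of all tested genes), where 4 to 6 belonged to the 8. The 10 without overlap became 19 without the filter (4737 of 30477) and 12 to 17 with a library left out (4776 to 6496 of 16743).

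Same-numbered libraries of the 2 genotypes did not deviate together over all tested genes, with correlations of -0.047, -0.12 and 0.037 in crypts and 0.054, -0.090 and 0.053 in tumors. With the number as a replicate block, 2 neighbors in crypts and 8 in tumors had an unadjusted p under 0.05, and 0 an adjusted one. Of all tested genes, 5.16% in crypts and 11.2% in tumors had an unadjusted p under 0.05 with this block. The number does carry sex in tumors, as replicate 3 was the female library of both groups (*Xist* 114 and 61.4). *Apc* Min/+ replicate 3 stood apart for *Entpd3* (9.83), *Vipr1* (11.7) and *Higd1a* (7.81), and the part of sex in this was not tested.

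Log2 differences reversed with quantile normalization for *Myrip* (0.0065) and *Vipr1* (-0.032) in crypts, and for *Gm34655* in tumors with the same total (-0.021), with or without the 50 highest genes. With a library left out, reversals fell in these ranges. Crypts: *Gm18101* -0.70 to 0.11, *5830454E08Rik* -0.18 to 0.29, *Eif1b* -0.0067 to 0.18, *Myrip* -0.21 to 0.048, *Trak1* -0.14 to 0.21, *Vipr1* -0.17 to 0.19, *Ss18l2* -0.22 to 0.065, *Vill* -0.43 to 0.15 and *Higd1a* -0.12 to 0.41. Tumors: *5830454E08Rik* -0.31 to 0.33, *Gm34655* -0.086 to 0.15, *Ss18l2* -0.016 to 0.18, *Nktr* -0.23 to 0.035 and *Oxsr1* -0.031 to 0.051.

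Depth limited what could be said of the genes nearest to *Ctnnb1*. At 14457896 to 16156712 fragments a library, *Gm39460* rested on 12 to 57 fragments in each tumor library, and 5 of the 17 genes within 250 kb had none in tumors. With 3 libraries against 3, an exact permutation test cannot go below 0.1. Most left-out libraries changed which genes had an unadjusted p under 0.05, and *Gm39460* and *Plcd1* were the named neighbors in tumors that kept it under each alternative run for them.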

Other observations

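Some neighbors under the filter on FPKM had groups that did not overlap and were not tested by limma in the report. In crypts, *1700048O20Rik*, 977 kb downstream of *Ctnnb1*, was at 0.0308, 0.0312 and 0.304 in wild-type and 0.439, 0.398 and 0.441 in *Ctnnb1* Δi.enh libraries. *Zfp651* was at 0.174, 0.204 and 0.217 in wild-type and 0.0957, 0.118 and 0.101 in knockout crypts. *E530011L22Rik*, which shares 109 exonic bases with *Zfp651* and 2182 with *Nktr* on the opposite strand, was at 0.0245, 0.0990 and 0.0604 in wild-type and 0.0116, 0 and 0 in knockout crypts. In tumors, *Cyp8b1*, which encodes an enzyme of bile acid synthesis, was at 0.0317, 0.124 and 0.0686 in *Apc* Min/+ and 0.159, 0.256 and 0.296 in *Ctnnb1* Δi.enh;*Apc* Min/+ libraries. These genes were picked for their values, at levels where single fragments weigh, and each reaches the smallest p that an exact permutation test of 3 against 3 allows, 0.1.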
